A study of Mus musculus with 9 samples.

Results

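The nuclear genes of the oxidative phosphorylation complexes were followed in leukaemic and normal mouse myeloid progenitors. Members were the genes whose single annotated symbol starts with Nduf, Uqcr, Cox4, Cox5, Cox6, Cox7, Cox8 or Atp5, together with Sdha, Sdhb, Sdhc and Sdhd, which gave 89 of the 18194 genes with 1 symbol on the arrays. They comprised 6 core subunits, 29 accessory subunits and 8 assembly factors of complex I, 4 subunits of complex II, 8 of complex III, 17 of complex IV and 17 of complex V. Of these, 88 passed the filter on low values, which asked that at least 3 of the 9 arrays lie above the 40th percentile of their array, a level between 4.84 and 4.95 on the log2 scale. The exception was Cox7b2, a testis isoform of a complex IV subunit, which was at or near the deposited floor of 3 on the log2 scale on all arrays and is not counted among the tested genes.

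The study compared 3 groups of 3 Affymetrix arrays, all of C57/BL6 mice aged 2 to 4 months. The K/L arrays held leukaemic cells with bi-allelic mutations of Cebpa, the gene of a transcription factor that myeloid progenitors need to mature into granulocytes. The Sox4 arrays held leukaemic cells that overexpress Sox4, which encodes an HMG-box transcription factor, and the wild type arrays held normal cells. All 3 groups were sorted through the gate called FrII in the labels, Lin*–Sca-1-Mac1lo/+c-Kit+, and the leukaemic cells were also labelled CD45.1−CD45.2+. The labels name the tissue as blood, do not say by what construct Sox4 was overexpressed, and do not say whether the mice of a group carried separate leukaemias. The p-values therefore measure only the spread between these samples. Sox4 intensity on the log2 scale was 10.87, 10.52 and 10.62 on the K/L arrays and 9.73, 9.61 and 9.87 on the Sox4 arrays, against 3.84, 3.81 and 3.97 on the wild type arrays, so both leukaemic groups stood far above the normal cells, where the gene was below the 40th percentile. For Cebpa the log2 intensity averaged 10.56 in K/L, 10.58 in Sox4 and 9.59 in wild type, and the array does not read the mutations. Kit, which the gate selects for, averaged 9.22, 9.18 and 9.17 in K/L, Sox4 and wild type on the log2 scale. Itgam, the gene of the gate's Mac1 antigen, was below the 40th percentile on all K/L and Sox4 arrays and reached 4.99 on the log2 scale in wild type.

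Oxidative phosphorylation makes ATP in mitochondria. Complex I takes electrons from NADH and complex II takes them from succinate; both pass them through coenzyme Q to complex III, cytochrome c and complex IV, which reduces oxygen. Complexes I, III and IV pump protons across the inner membrane, and complex V, the ATP synthase, uses the returning flow. Most subunits are encoded in the nucleus and a small core in mitochondrial DNA, and several complex IV subunits have isoforms typical of muscle, lung or testis. Acute myeloid leukaemia cells are known to lean on mitochondrial respiration.

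Nuclear respiratory genes often carry binding motifs of NRF1, ETS factors such as GABP, and YY1 close to their start, and 4 promoters are shown here because their genes carry the results below. Sdhb and Atp5g2 passed the test as higher in the Sox4 leukaemia and hold an NRF1 motif, Atp5g1 had the largest difference of any complex V member between Sox4 and wild type, and Cox6b2 had the largest of all members. Each line gives the 250 bases before the RefSeq start of the gene on its own strand (GRCm38.p6), and capitals mark a match to any of the 5 motifs searched. The stretches are chr4:140961021-140961270 on the plus strand for Sdhb, chr15:102671048-102671297 on the minus strand for Atp5g2, chr11:96075632-96075881 on the minus strand for Atp5g1 and chr7:4753095-4753344 on the minus strand for Cox6b2.
Sdhb: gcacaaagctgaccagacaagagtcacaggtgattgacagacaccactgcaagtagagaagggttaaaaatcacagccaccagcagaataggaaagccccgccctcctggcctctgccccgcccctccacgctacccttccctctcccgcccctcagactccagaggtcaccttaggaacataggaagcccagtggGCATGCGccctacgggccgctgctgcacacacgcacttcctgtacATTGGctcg
Atp5g2: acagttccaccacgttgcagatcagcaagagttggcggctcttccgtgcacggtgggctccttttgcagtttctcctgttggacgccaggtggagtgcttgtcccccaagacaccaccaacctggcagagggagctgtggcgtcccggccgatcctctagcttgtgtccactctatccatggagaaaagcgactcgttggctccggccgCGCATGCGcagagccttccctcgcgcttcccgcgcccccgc
Atp5g1: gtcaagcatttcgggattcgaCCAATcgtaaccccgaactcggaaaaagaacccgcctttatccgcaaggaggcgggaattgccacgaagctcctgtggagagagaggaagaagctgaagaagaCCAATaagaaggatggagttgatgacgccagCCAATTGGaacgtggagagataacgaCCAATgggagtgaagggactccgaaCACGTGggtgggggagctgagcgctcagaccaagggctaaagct
Cox6b2: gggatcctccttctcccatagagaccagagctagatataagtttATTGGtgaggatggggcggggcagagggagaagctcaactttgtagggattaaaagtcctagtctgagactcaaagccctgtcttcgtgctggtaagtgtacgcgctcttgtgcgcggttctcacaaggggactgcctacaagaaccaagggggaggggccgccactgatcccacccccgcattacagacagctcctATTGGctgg
The capitals are an NRF1 motif and a CCAAT box in Sdhb, an NRF1 motif that reads the same on both strands in Atp5g2, 5 CCAAT boxes, of which 2 overlap, and an E-box in Atp5g1, and 2 CCAAT boxes in Cox6b2.

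Across the members, RefSeq gave a promoter of 300 bases, 250 before and 50 after the start, for 73 of 89 genes. The NRF1 motif GCATGCG, searched on both strands like the others, was in 11 of the 73 member promoters (15.1%), against 6.39% of the 10353 promoters of tested genes. The ETS motif CCGGAAG was in 24.7% of member promoters against 17.5% of those of tested genes, and the YY1 motif ATGGCGG in 12.3% against 7.98%. The shorter CCAAT box was in 43.8% against 38.3%, and the E-box CACGTG in 8.22% against 9.92%. Among members that passed the test as higher in Sox4 than in wild type, 5 of 25 promoters (20.0%) held the NRF1 motif, against 6 of the other 47 tested members (12.8%), while the ETS motif was in 16.0% of those 25 and 29.8% of the other 47. These counts describe letters in a window, were not tested, and say nothing of binding.

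Most members differed little between groups. In K/L minus wild type, 21 of 88 members were higher (23.9%) and 13 lower (14.8%) at an adjusted p under 0.05 in limma, where 29.0% of all 12826 tested genes were higher and 21.6% lower, 50.6% in either direction. In Sox4 minus wild type, 27 members were higher (30.7%) and 3 lower (3.41%), where 26.7% of all tested genes were higher and 21.1% lower, 47.8% in either direction. In K/L minus Sox4, 5 members were higher (5.68%) and 18 lower (20.5%), where 14.9% of all tested genes were higher and 14.0% lower, 28.9% in either direction. The share of members called lower was thus under the background in both comparisons with wild type, and the share called higher in Sox4 minus wild type was near it. These 2 comparisons share the wild type arrays and are not independent of each other. In the 9 fits that leave out 1 array each, 17 of the calls in K/L minus wild type, 17 in Sox4 minus wild type and 7 in K/L minus Sox4 held every time.

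The sizes were small beside those of other genes. The members also had higher signal, with a median level of 10.92 on the log2 scale against 7.64 over all tested genes. Of the 88, 53 lay above the 90th percentile of tested genes. The median SD within a group was 0.057, 0.065 and 0.097 for members in K/L, Sox4 and wild type, against 0.114, 0.113 and 0.187 for tested genes. The part of level and spread in the sizes, and in the counts of groups that do not overlap, was not tested. The median difference of log2 intensity over the members was 0.02 in K/L minus wild type, 0.17 in Sox4 minus wild type and -0.17 in K/L minus Sox4, against 0.06, 0.03 and 0.03 over all tested genes. The median of the absolute difference over the members was 0.19 and 0.18 against wild type for K/L and Sox4, where all tested genes had 0.36 and 0.34. At least a 2-fold difference that passed the test was seen for 3 members in K/L minus wild type, 2 in Sox4 minus wild type and 1 in K/L minus Sox4, or 3.41%, 2.27% and 1.14% of members, against 16.6%, 15.6% and 9.08% of tested genes. The genes behind these counts were Ndufb1, Cox6b2 and Cox7c in K/L minus wild type, Cox6b2 and Cox7c in Sox4 minus wild type, and Cox6b2 in K/L minus Sox4. The difference was above 0 for 46 of 88 members in K/L minus wild type, 72 in Sox4 minus wild type and 20 in K/L minus Sox4.

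Members whose arrays did not overlap between groups were counted as well. All K/L arrays lay above all wild type arrays for 29 of 88 members (33.0%) and below them for 23 (26.1%), where 33.0% of all tested genes were above and 25.1% below, 58.1% in either direction. All Sox4 arrays lay above all wild type arrays for 43 members (48.9%) and below them for 6 (6.82%), where 31.1% of tested genes were above and 25.1% below, 56.2% in either direction. All K/L arrays lay above all Sox4 arrays for 13 members (14.8%) and below them for 50 (56.8%), where 27.3% of tested genes were above and 23.8% below, 51.1% in either direction. By this count the share of members higher in Sox4 than in wild type, and the share lower in K/L than in Sox4, exceeded the background by more than the counts of calls did.

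The members were also summarised on each array. The median log2 intensity of the 88 members was 10.86, 10.88 and 10.93 on the K/L arrays and 11.03, 11.11 and 11.05 on the Sox4 arrays, against 10.83, 10.77 and 10.94 on the wild type arrays. The Sox4 arrays lay above all the others, and the K/L and wild type arrays overlapped. The median over all tested genes was 7.72 to 7.73 on the K/L arrays, 7.70 to 7.74 on the Sox4 arrays and 7.53 to 7.65 on the wild type arrays. With each array centred on its median over all probe sets, 27 members were higher and 4 lower in K/L minus wild type, and 11 were higher and 12 lower in K/L minus Sox4, so the split in these comparisons depends on the scaling. Centring moved the median difference of all tested genes to 0.15 and 0.11 in the same comparisons. In Sox4 minus wild type the centred split was 28 higher and 2 lower.

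Some arrays stood out, and an RNA measure moved with the groups. Wild type array 3 stood apart, with a correlation over tested genes of 0.979 and 0.977 with the other wild type arrays, where all other pairs within a group had 0.991 or more. Without it, 22 members were higher and 10 lower in K/L minus wild type, 35 higher and 2 lower in Sox4 minus wild type, and 10 higher and 27 lower in K/L minus Sox4. Sox4 array 3 carried both Xist, at 11.63, and the Y-linked Kdm5d, at 9.01 on the log2 scale, where each of the other 8 arrays was high for only 1 of the pair. Sox4 array 1 was high for Xist, at 12.10, while Sox4 array 2 and all wild type and K/L arrays were high for Kdm5d. The sex marks therefore differed between the Sox4 group and the other groups, and their part in the differences was not tested. Without Sox4 array 3, 20 members were higher and 2 lower in Sox4 minus wild type, and 1 was higher and 8 lower in K/L minus Sox4. The ratio of the 3′ to the 5′ Gapdh probe set, a measure of RNA integrity, was 1.93 to 2.005 in K/L and 2.219 to 2.442 in Sox4, against 2.677 to 2.909 in wild type, and its part in the differences was not tested. The same ratio for actin overlapped between the groups. It was 0.866 to 0.913 in K/L and 0.881 to 0.915 in Sox4, against 0.885 to 0.976 in wild type. Erythroid markers summed to 7.78 to 7.83 in K/L and 8.62 to 8.65 in Sox4, against 7.74 to 8.13 in wild type on the log2 scale, and of the 7 on the arrays Epor and Slc4a1 were below the 40th percentile in every group. The 5 megakaryocyte markers summed to 7.70 to 7.74 in K/L and 10.24 to 10.93 in Sox4, against 7.56 to 8.21 in wild type, with Ppbp below the 40th percentile throughout and Pf4 in K/L and wild type, and the part of such cells in the members' levels was not tested. In these bulk samples fewer cells of a type and less RNA per cell cannot be told apart.

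**Figure D1:**
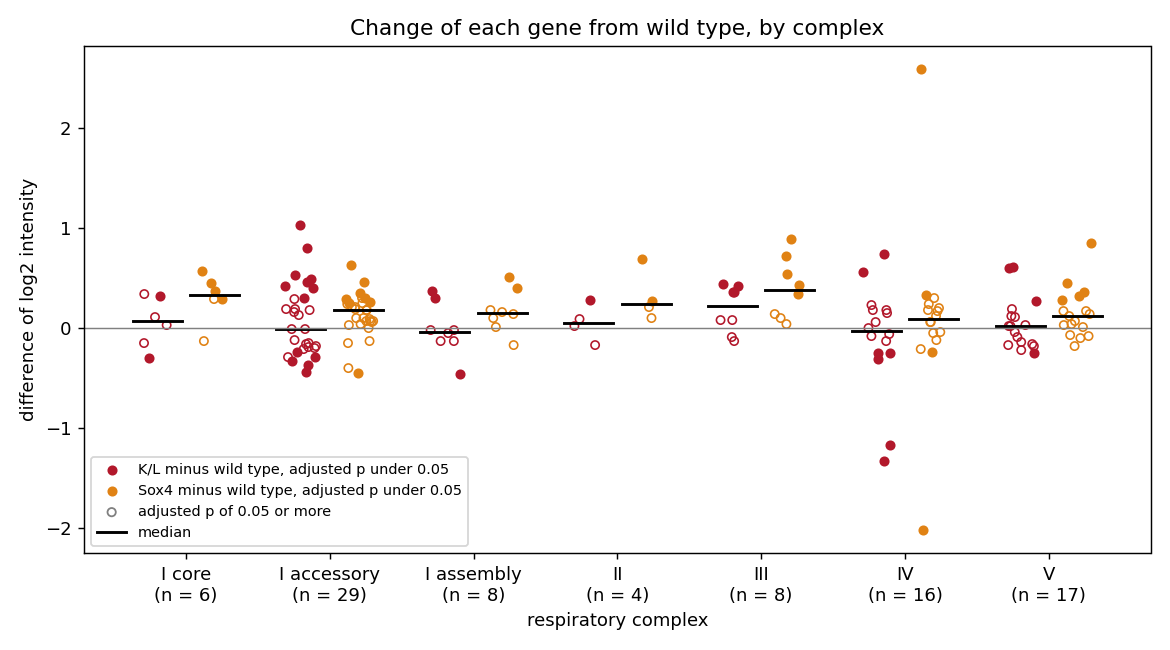
Difference of log2 intensity from wild type for each of the 88 tested members, grouped by complex, with K/L minus wild type in red left of Sox4 minus wild type in orange. Filled points passed the test at an adjusted p under 0.05, open points did not, and bars are medians. The medians of Sox4 minus wild type lie above 0 in all 7 groups of members, with the highest in complex III at 0.39, and complex IV holds the widest spread, with Cox6b2 at 2.59 and Cox7c at -2.02.

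Complex III had the highest median difference of any complex in either comparison with wild type. Of its 8 members, 4 were higher and none lower in K/L minus wild type, with a median difference of 0.22, and 5 were higher and none lower in Sox4 minus wild type, with a median of 0.39. Of all tested genes, 29.0% and 26.7% were higher in these comparisons, and 21.6% and 21.1% were lower. In K/L minus Sox4, 4 of the 8 were lower, where 14.0% of all tested genes were, and their median difference was -0.22. Uqcrc1 encodes core protein 1, one of the large matrix-facing subunits. Its log2 intensity was 9.43, 9.54 and 9.43 on the K/L arrays and 9.85, 9.97 and 9.90 on the Sox4 arrays, against 8.98, 9.21 and 8.88 on the wild type arrays. No values overlapped between any of the groups, with Sox4 highest and wild type lowest. The difference of log2 intensity was 0.44 ± 0.11 (SE, n = 3 each) in K/L minus wild type (limma, adjusted p = 0.00597), 0.89 ± 0.11 in Sox4 minus wild type (limma, adjusted p = 9.15e-05) and -0.44 ± 0.11 in K/L minus Sox4 (limma, adjusted p = 0.0112).

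Some other subunits of complex III had the same order of group means with smaller differences, while Uqcrb and Uqcrh had the lowest mean in K/L. Uqcrfs1, the Rieske iron-sulphur protein, had log2 intensities of 9.51, 9.55 and 9.61 in K/L and 9.80, 9.84 and 9.82 in Sox4, against 9.50, 9.47 and 9.46 in wild type. The Sox4 arrays lay above all others, and the difference in Sox4 minus wild type was 0.34 ± 0.08 (SE, limma, adjusted p = 0.00634). The small subunits Uqcr10 and Uqcr11 were higher in both leukaemias, with differences of log2 intensity of 0.42 and 0.36 in K/L minus wild type and 0.43 and 0.54 in Sox4 minus wild type. Each Uqcr10 call was lost in 3 of the 9 fits that leave out 1 array, and no Uqcr11 call was. Uqcrq, another small subunit, differed by 0.36 in K/L minus wild type and 0.72 in Sox4 minus wild type on the probe set with the highest mean. Another Uqcrq probe set, of lower signal, gave -1.11 in Sox4 minus wild type, and with the mean of all its probe sets the Uqcrq difference was -0.06, so the direction for this gene depends on the probe set. Uqcrc2, core protein 2, differed by 0.08 and 0.10 in the same comparisons, Uqcrh by -0.09 and 0.04, and Uqcrb by -0.13 and 0.14, and none of these 3 passed the test against wild type.

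Cyc1, the cytochrome c1 subunit of complex III whose symbol lies outside the naming rule, had log2 intensities of 9.62, 9.69 and 9.68 in K/L and 10.20, 10.23 and 10.15 in Sox4, against 9.50, 9.76 and 9.48 in wild type. Its Sox4 values lay above all others, and the K/L and wild type values overlapped. The difference was 0.08 ± 0.10 in K/L minus wild type, which did not pass the test, and 0.61 ± 0.10 in Sox4 minus wild type (SE, limma, adjusted p = 0.000668). Cycs, the mobile carrier cytochrome c, was lower by its difference of -0.31 in K/L minus wild type and had -0.21 in Sox4 minus wild type, which did not pass the test.

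Complex II links the chain to the tricarboxylic acid cycle. Its 4 subunits all had positive differences in Sox4 minus wild type, with 2 past the test. In that comparison 26.7% of all tested genes were higher, and the difference was above 0 for 72 of the 88 members. Sdhb, the iron-sulphur subunit whose promoter is printed above, had log2 intensities of 10.13, 10.08 and 9.98 in K/L and 10.55, 10.44 and 10.41 in Sox4, against 9.73, 9.71 and 9.90 in wild type. The groups did not overlap, and Sox4 was again highest. Its difference was 0.28 ± 0.10 in K/L minus wild type (SE, limma, adjusted p = 0.0336), a call lost in 4 of the 9 fits that leave out 1 array, 0.69 ± 0.10 in Sox4 minus wild type (limma, adjusted p = 0.000259) and -0.41 ± 0.10 in K/L minus Sox4 (limma, adjusted p = 0.0105). Sdha, the flavoprotein that oxidises succinate, differed by 0.27 in Sox4 minus wild type, which passed, and by 0.09 in K/L minus wild type, which did not. The Sdha call was lost in 5 of those 9 fits, and with the mean of all its probe sets the difference was -0.05. The membrane anchors Sdhc and Sdhd differed by 0.21 and 0.10 in Sox4 minus wild type and by -0.17 and 0.02 in K/L minus wild type, none of which passed, and Sdhc was lower in K/L minus Sox4 by a difference of -0.38, a call also lost in 5 of those fits.

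**Figure D2:**
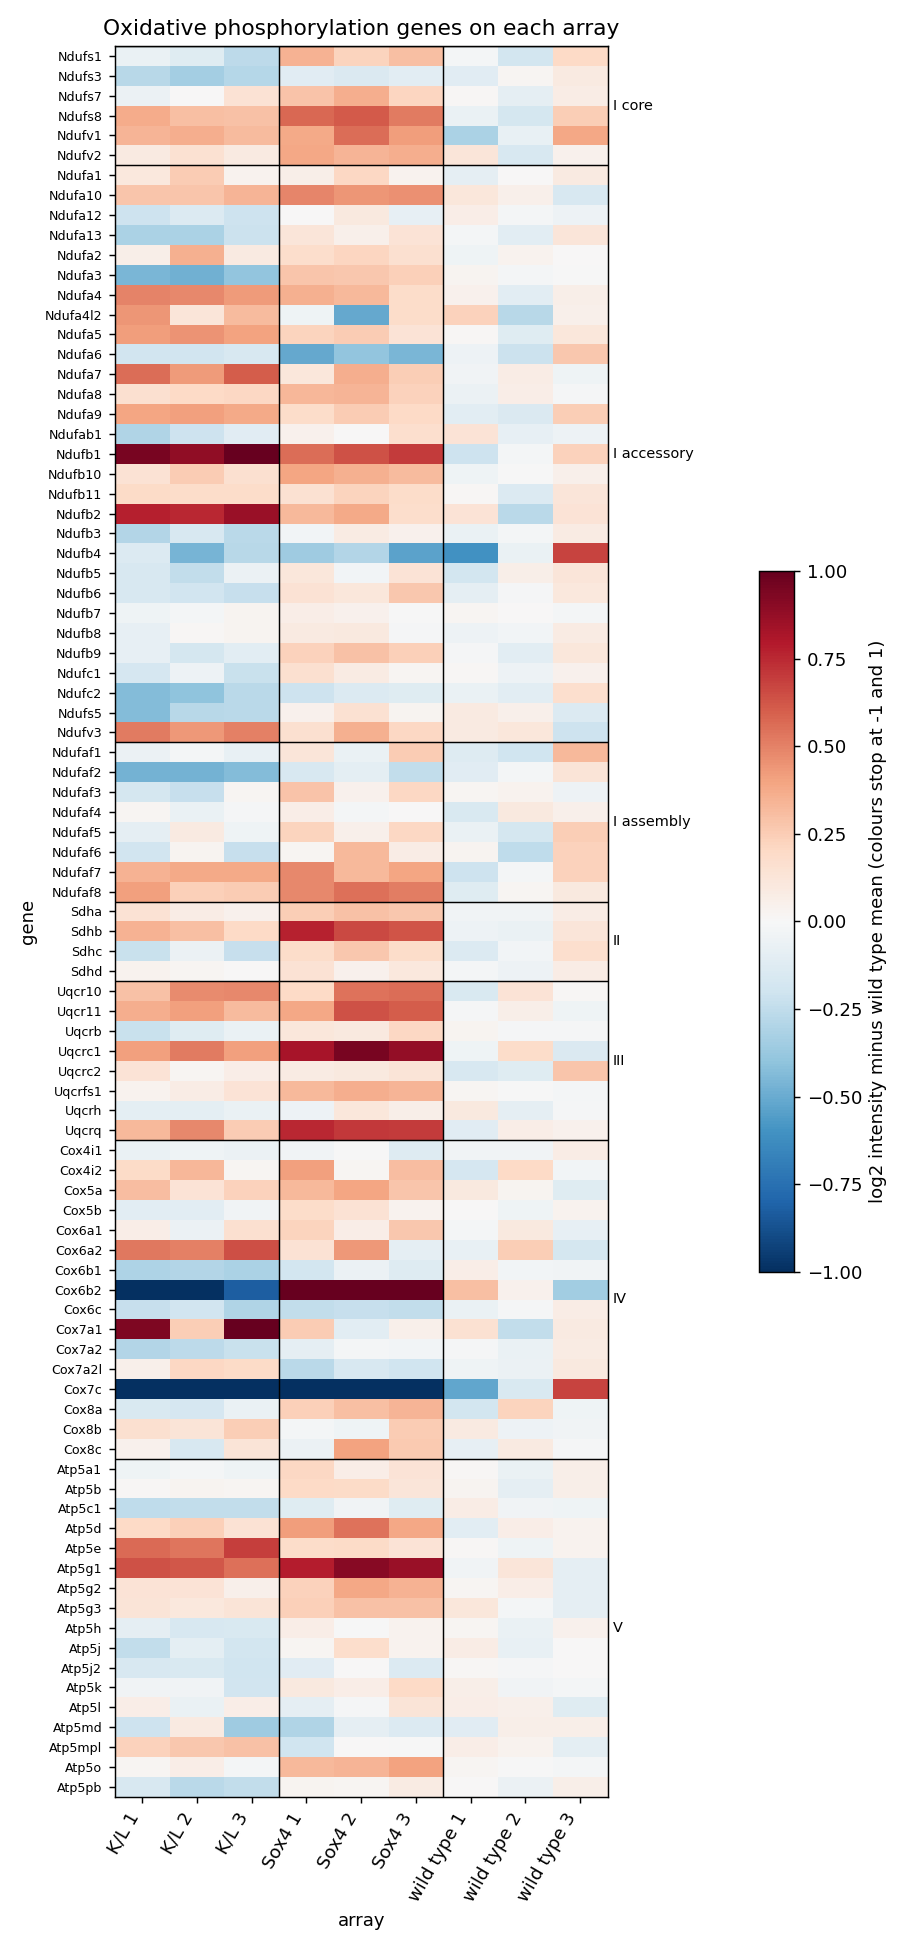
Log2 intensity of each of the 88 tested members (rows, by complex) on each of the 9 arrays (columns, K/L then Sox4 then wild type), as the difference from the wild type mean, with colours ending at -1 and 1. Most cells are pale. Cox6b2 reaches the end of the red scale on the Sox4 arrays, followed there by Uqcrc1, Atp5g1 and Uqcrq. Ndufb1, Ndufb2 and Cox7a1 hold the reddest cells on the K/L arrays, where Cox6b2 is blue, and Cox7c is blue on all 6 leukaemic arrays.

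The core subunits of complex I, which hold its redox centres and carry out electron transfer, were mostly higher in Sox4 minus wild type. There 4 of 6 passed the test (66.7%, against 26.7% of all tested genes) and none was lower, with a median difference of 0.33. In K/L minus wild type 1 was higher and 1 lower (16.7% each, against 29.0% and 21.6%), with a median of 0.07. Ndufs8, an iron-sulphur subunit on the path to coenzyme Q, had log2 intensities of 10.19, 10.12 and 10.11 in K/L and 10.39, 10.43 and 10.34 in Sox4, against 9.75, 9.64 and 10.06 in wild type. The groups did not overlap, though wild type array 3 came close to the K/L arrays. The difference was 0.32 ± 0.11 in K/L minus wild type (SE, limma, adjusted p = 0.0405), a call lost in 8 of the 9 fits that leave out 1 array, and 0.57 ± 0.11 in Sox4 minus wild type (limma, adjusted p = 0.00258). Ndufv1, the NADH-binding subunit, differed by 0.45 in Sox4 minus wild type, a call also lost in 8 of those 9 fits, and by 0.34 in K/L minus wild type, which did not pass. Ndufv2 and Ndufs7 were higher in Sox4 minus wild type by 0.37 and 0.29 on the log2 scale, and the Ndufs7 call was lost in 4 of those fits. Ndufs3 was lower in K/L minus wild type, with a difference of -0.30. Ndufs1, the largest iron-sulphur subunit, passed the test in neither comparison with wild type and was lower in K/L minus Sox4, with a difference of -0.44 (limma, adjusted p = 0.0167), a call lost in 3 of those fits.

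The accessory subunits of complex I, which surround and stabilise the core, held members called in each direction against wild type. Of 29, 8 were higher (27.6%) and 5 lower (17.2%) in K/L minus wild type, with a median difference of -0.01. In Sox4 minus wild type, 7 were higher (24.1%) and 1 lower (3.45%), with a median of 0.18. The shares called higher were near those of all tested genes, 29.0% and 26.7%, while 21.6% and 21.1% of all tested genes were lower. Ndufb1, a membrane-arm subunit, had log2 intensities of 6.75, 6.69 and 7.06 in K/L and 6.36, 6.44 and 6.50 in Sox4, against 5.60, 5.78 and 6.03 in wild type. Here K/L was highest and the groups did not overlap, with differences of 1.03 ± 0.14 in K/L minus wild type (SE, limma, adjusted p = 0.000179) and 0.63 ± 0.14 in Sox4 minus wild type (limma, adjusted p = 0.00391). Ndufb2, also of the membrane arm, had 10.16, 10.14 and 10.25 in K/L and 9.71, 9.76 and 9.56 in Sox4, against 9.52, 9.11 and 9.52 in wild type on the log2 scale. K/L lay above both other groups, which did not overlap either. Its difference was 0.80 ± 0.13 in K/L minus wild type (SE, limma, adjusted p = 0.000509), 0.30 ± 0.13 in Sox4 minus wild type, which did not pass the test, and 0.50 ± 0.13 in K/L minus Sox4 (limma, adjusted p = 0.0137). Another Ndufb2 probe set, of lower signal, gave -0.52 in K/L minus wild type, which passed, and -0.28 in K/L minus Sox4, which did not. The K/L minus Sox4 call was lost in 2 of the 9 fits that leave out 1 array and with the mean of all probe sets. The K/L minus wild type call held under all alternatives.

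Other accessory subunits higher in K/L minus wild type were Ndufa7 with a log2 difference of 0.53, Ndufv3 with 0.49, Ndufa4 with 0.46, Ndufa5 with 0.42, Ndufa9 with 0.40 and Ndufa10 with 0.30. Ndufa4 was named for complex I and is now regarded as a subunit of complex IV, and it was also higher in Sox4 minus wild type, by 0.29. Its paralogue Ndufa4l2, a hypoxia-induced gene, differed by 0.29 in K/L minus wild type and -0.13 in Sox4 minus wild type and passed in neither. Ndufa10 was the highest accessory difference but 1 in Sox4 minus wild type, at 0.46, and its K/L minus wild type value turned to -0.10 with the mean of all its probe sets. The Ndufa10 call in Sox4 minus wild type was also lost with that mean. The subunits lower in K/L minus wild type were Ndufa3, Ndufc2, Ndufs5, Ndufa13 and Ndufb3, with log2 differences from -0.44 to -0.24. The Ndufb3 call was lost in all 9 fits that leave out 1 array, those of Ndufa13 and Ndufs5 in 3 each and that of Ndufc2 in 1. Ndufa13, also known as GRIM-19, had -0.29 in K/L minus wild type and -0.39 in K/L minus Sox4. Ndufa6 was the accessory subunit that passed as lower in Sox4 minus wild type, with a difference of -0.45 (limma, adjusted p = 0.0128).

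Ndufa3 was higher in one leukaemia and lower in the other. Its log2 intensity was 10.16, 10.13 and 10.22 in K/L and 10.89, 10.88 and 10.85 in Sox4, against 10.64, 10.59 and 10.61 in wild type. The 3 groups were tight and did not overlap. The difference was -0.44 ± 0.08 in K/L minus wild type (SE, limma, adjusted p = 0.00139), 0.26 ± 0.08 in Sox4 minus wild type (limma, adjusted p = 0.0245) and -0.70 ± 0.08 in K/L minus Sox4 (limma, adjusted p = 0.000141). The Sox4 minus wild type call was lost in 4 of the 9 fits that leave out 1 array and turned to -0.05 with the mean of all probe sets, while both K/L calls held under every alternative.

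Of the 8 complex I assembly factors, 2 were higher and 1 lower in K/L minus wild type. In Sox4 minus wild type, 2 were higher and none lower. Of all tested genes, 29.0% and 26.7% were higher in these comparisons, and 21.6% and 21.1% were lower. The shares of assembly factors called higher thus did not exceed the background. Ndufaf8 and the methyltransferase Ndufaf7 were higher in both, with log2 differences of 0.30 and 0.37 in K/L minus wild type and 0.51 and 0.40 in Sox4 minus wild type. In K/L minus wild type the Ndufaf7 call was lost in 5 of the 9 fits that leave out 1 array and the Ndufaf8 call in 2. Both Ndufaf8 calls were lost with the mean of all its probe sets. Another Ndufaf8 probe set, of lower signal, gave -0.05 in K/L minus wild type and -0.16 in Sox4 minus wild type, and passed in neither. Ndufaf2, a paralogue of the subunit Ndufa12, had log2 intensities of 9.94, 9.94 and 9.98 in K/L and 10.25, 10.31 and 10.16 in Sox4, against 10.30, 10.39 and 10.54 in wild type. The K/L arrays lay below all others, with a difference of -0.46 ± 0.10 in K/L minus wild type (SE, limma, adjusted p = 0.00297).

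**Figure D3:**
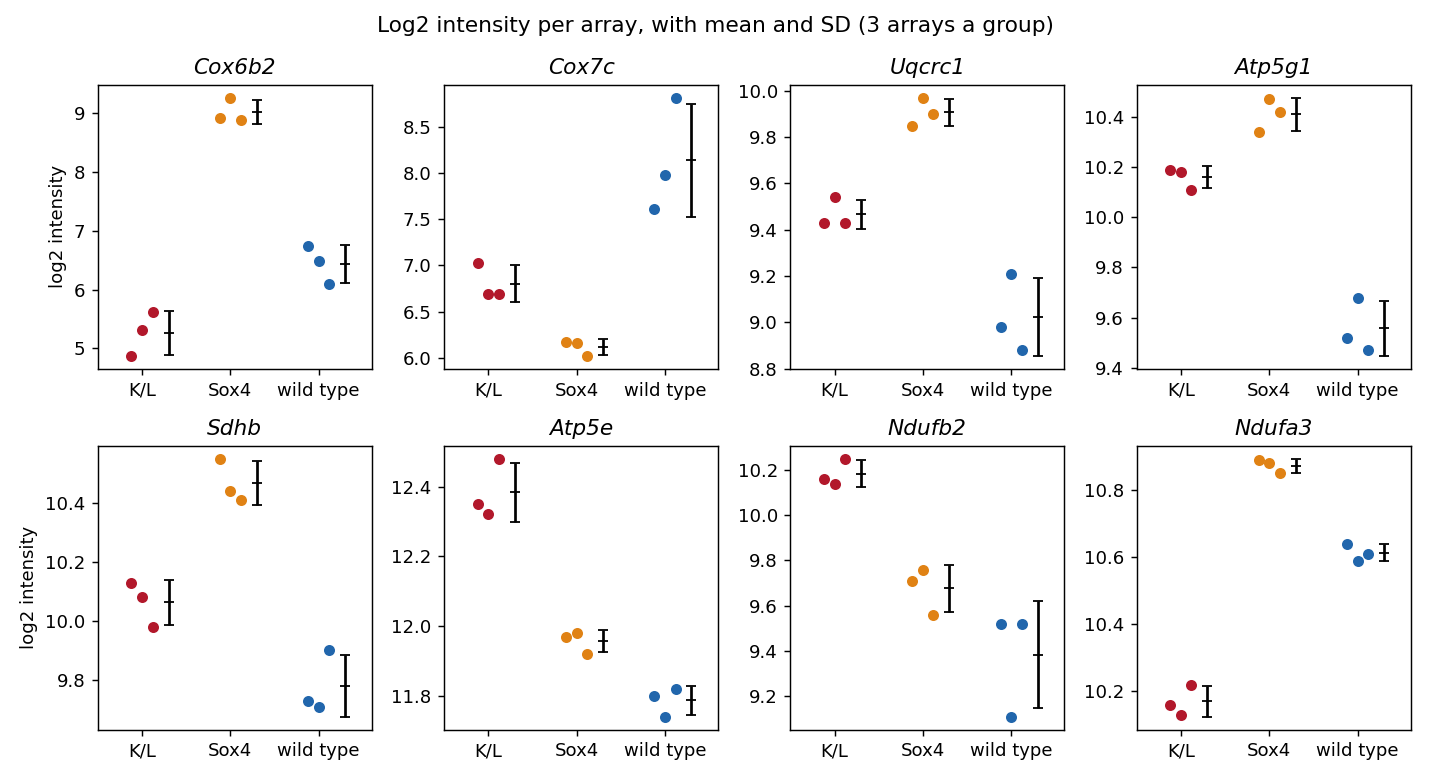
Log2 intensity of 8 members on each of the 9 arrays, with the mean and SD of the 3 arrays of a group beside the points, in the order K/L, Sox4, wild type. Sox4 is highest for Uqcrc1, Atp5g1, Sdhb, Ndufa3 and Cox6b2, K/L is highest for Atp5e and Ndufb2, and wild type is highest for Cox7c. Each panel has its own vertical axis, which does not start at 0.

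Complex IV held the members with the largest differences. Of its 16 tested members, 2 were higher (12.5%) and 5 lower (31.2%) in K/L minus wild type, with a median difference of -0.03. In Sox4 minus wild type, 2 were higher and 2 lower (12.5% each), with a median of 0.09. Among all tested genes, 29.0% and 26.7% were higher and 21.6% and 21.1% lower in these comparisons. Cox6b2 is the testis isoform of subunit VIb. Its log2 intensity was 4.87, 5.32 and 5.61 in K/L and 8.92, 9.26 and 8.89 in Sox4, against 6.74, 6.48 and 6.09 in wild type. The Sox4 arrays stood far above the others and the K/L arrays below wild type, with no overlap, and the lowest K/L value lay at the 40th percentile. The difference was -1.17 ± 0.21 in K/L minus wild type (SE, limma, adjusted p = 0.00129), 2.59 ± 0.21 in Sox4 minus wild type (limma, adjusted p = 8.52e-06) and -3.76 ± 0.21 in K/L minus Sox4 (limma, adjusted p = 9.39e-07), a 13.5-fold difference. The somatic isoform Cox6b1 had -0.31 in K/L minus wild type, which passed the test, and -0.12 in Sox4 minus wild type, which did not.

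Cox7c, a small subunit found in all tissues, was lower in both leukaemias. Its log2 intensity was 7.03, 6.69 and 6.69 in K/L and 6.17, 6.16 and 6.02 in Sox4, against 7.61, 7.98 and 8.81 in wild type. Both leukaemic groups lay below wild type, whose own arrays spread widely. The difference was -1.33 ± 0.25 in K/L minus wild type (SE, limma, adjusted p = 0.00172) and -2.02 ± 0.25 in Sox4 minus wild type (limma, adjusted p = 0.000132), and K/L minus Sox4, at 0.68, did not pass. A second Cox7c probe set with a lower signal gave -0.66 in K/L minus wild type, which did not pass, and -1.65 in Sox4 minus wild type, which did. In wild type the main Cox7c probe set averaged 8.13, where the ubiquitous isoforms Cox4i1, Cox6a1 and Cox8a averaged 11.77, 11.89 and 8.80. Which Cox7c transcripts these probe sets read was not tested. Cox6c was lower by small differences, -0.25 in K/L minus wild type and -0.24 in Sox4 minus wild type, each lost in 8 of the 9 fits that leave out 1 array. Cox7a2 was lower in K/L minus wild type, at -0.25, a call lost in 4 of those fits, and Cox5a, which sits on the matrix side, was higher in Sox4 minus wild type, at 0.33.

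Isoforms typical of heart and skeletal muscle were measured beside the somatic forms. Cox6a2 had log2 intensities of 6.93, 6.91 and 7.05 in K/L and 6.55, 6.84 and 6.31 in Sox4, against 6.33, 6.65 and 6.23 in wild type. All K/L values exceeded those of wild type, with a difference of 0.56 ± 0.15 (SE, limma, adjusted p = 0.0116), while Sox4 and wild type overlapped. Cox7a1 had 5.80, 5.11 and 5.92 in K/L and 5.12, 4.76 and 4.92 in Sox4, against 5.02, 4.62 and 4.96 in wild type on the log2 scale. K/L lay above wild type on every array, K/L array 2 fell just under 1 Sox4 array, and most values were close to the 40th percentile. The Cox7a1 difference in K/L minus wild type was 0.74 ± 0.21 (SE, limma, adjusted p = 0.0135), a call lost without K/L array 1 or K/L array 3. The 5 muscle and heart markers summed to 8.09 to 8.18 in K/L and 6.86 to 6.94 in Sox4, against 7.22 to 7.29 in wild type on the log2 scale. Of these, Myh6, Myh7 and Tnnt2 were below the 40th percentile on every array, and Ckm, muscle creatine kinase, differed by 1.30 in K/L minus wild type and -0.90 in Sox4 minus wild type. Cox8b, the muscle isoform of subunit VIII, differed by 0.18 and 0.06, Cox8c of testis by 0.00 and 0.20, and Cox4i2 of lung by 0.18 and 0.24 in K/L and Sox4 minus wild type, and none of these passed.

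The ubiquitous isoforms Cox4i1, Cox6a1 and Cox8a did not pass the test against wild type, with log2 differences of -0.06, 0.06 and -0.13 in K/L minus wild type and -0.05, 0.18 and 0.30 in Sox4 minus wild type. Cox8a was lower in K/L minus Sox4, at -0.42. Cox7a2l, which helps to join complexes III and IV into supercomplexes, was higher in K/L minus Sox4, at 0.35, and passed in neither comparison with wild type. The calls of Cox8a and Cox7a2l were each lost in 4 of the 9 fits that leave out 1 array.

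Most complex V members passed no test against wild type. In K/L minus wild type, 3 of 17 were higher (17.6%) and 1 lower (5.88%), against 29.0% and 21.6% of all tested genes. In Sox4 minus wild type, 5 were higher (29.4%) and none lower, against 26.7% and 21.1%. Atp5g1 is one of the genes that encode the proton-carrying c subunit of the rotor ring. Its log2 intensity was 10.19, 10.18 and 10.11 in K/L and 10.34, 10.47 and 10.42 in Sox4, against 9.52, 9.68 and 9.47 in wild type. Both leukaemic groups lay above wild type, and Sox4 above K/L. The difference was 0.61 ± 0.09 in K/L minus wild type (SE, limma, adjusted p = 0.000428) and 0.85 ± 0.09 in Sox4 minus wild type (limma, adjusted p = 5.03e-05), and K/L minus Sox4, at -0.25, did not pass. Atp5g2 and Atp5g3 encode the same mature c subunit, and they differed by 0.11 and 0.12 in K/L minus wild type, which did not pass, and by 0.32 and 0.28 in Sox4 minus wild type, which did. With the mean of all its probe sets the Atp5g2 value in Sox4 minus wild type was -0.05, the Atp5g3 call was lost in 4 of the 9 fits that leave out 1 array, and neither comparison with wild type passed for Atp5g1.

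Atp5e, the epsilon subunit of the central stalk, was high in the K/L leukaemia. Its log2 intensity was 12.35, 12.32 and 12.48 in K/L and 11.97, 11.98 and 11.92 in Sox4, against 11.80, 11.74 and 11.82 in wild type. K/L lay above both other groups, and Sox4 above wild type by less. The difference was 0.60 ± 0.09 in K/L minus wild type (SE, limma, adjusted p = 0.000333), 0.17 ± 0.09 in Sox4 minus wild type, which did not pass, and 0.43 ± 0.09 in K/L minus Sox4 (limma, adjusted p = 0.0048). Atp5mpl, a small proteolipid of the membrane sector, differed by 0.27 in K/L minus wild type and 0.33 in K/L minus Sox4, calls lost in 7 and 5 of the 9 fits that leave out 1 array. Atp5d, the delta subunit, and Atp5o, which forms part of the peripheral stalk, were higher in Sox4 minus wild type by log2 differences of 0.45 and 0.36. Atp5o was also lower in K/L minus Sox4, at -0.34. The catalytic subunits Atp5a1 and Atp5b differed by -0.04 and 0.02 in K/L minus wild type and by 0.14 and 0.17 in Sox4 minus wild type, none of which passed. Atp5c1, the gamma subunit, was lower in K/L minus wild type, at -0.25, a call lost in 6 of those fits.

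Between the leukaemias, the 18 members lower in K/L than in Sox4 (20.5%, against 14.0% of all tested genes) came from every complex. They numbered 1 core, 5 accessory and 2 assembly genes of complex I, 2 of complex II, 4 of complex III, 2 of complex IV and 2 of complex V. Apart from Cox6b2 their log2 differences lay between -0.70 and -0.26. Atp5pb, Ndufaf3, Ndufb6 and Uqcrb passed the test here and in neither comparison with wild type, as did Cox8a, Ndufs1 and Sdhc above. The Atp5pb call was lost in 7 of the 9 fits that leave out 1 array, those of Ndufaf3 and Uqcrb in 6 each and that of Ndufb6 in 1. The 5 members higher in K/L than in Sox4 were Atp5e, Atp5mpl, Cox7a1, Cox7a2l and Ndufb2.

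The genomic position of the members was set against their neighbours on the same chromosome. The 4 members on chromosome 6, Ndufa4, Ndufa5, Ndufa9 and Ndufb2, were all higher in K/L minus wild type, with a median log2 difference of 0.44. Of the other 639 tested genes on chromosome 6, 44.6% were higher in that comparison, with a median of 0.26, so much of the chromosome moved the same way. On chromosome 12, 2 of 3 members were higher, Ndufb1 and Atp5mpl, while 46.0% of the other 459 tested genes were higher, with a median of 0.29. In Sox4 minus wild type the other genes had medians of 0.00 on chromosome 6 and on chromosome 12, with 25.5% and 24.6% higher. On chromosome 11, 4 of 5 members (Atp5g1, Ndufaf8, Uqcr10 and Uqcrq) were higher in both comparisons with wild type, where 31.7% and 30.9% of the other 1084 genes were higher in K/L and Sox4. The part of these chromosome-wide shifts in the members' differences was not tested.

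**Figure D4:**
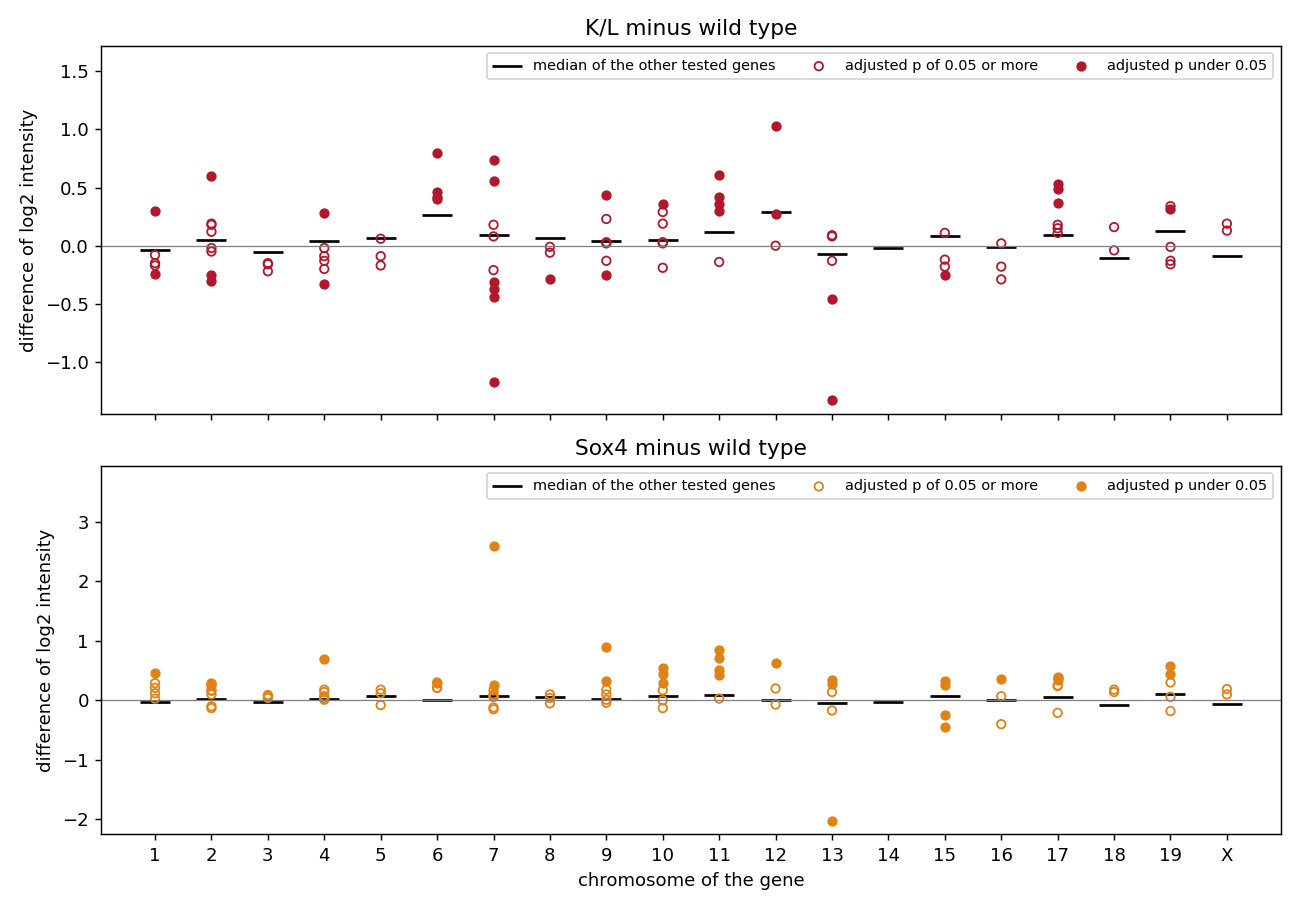
Difference of log2 intensity from wild type for the 88 tested members by chromosome, for K/L (top) and Sox4 (bottom). Filled points passed the test, open points did not, and black bars are the medians of the other tested genes of the chromosome. In K/L the bars of chromosomes 6 and 12 stand highest, at 0.26 and 0.29, and the 4 members on chromosome 6 lie above their bar.

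Other genes that serve the complexes were counted by list, beside the background shares given above for each comparison. Of 36 tested assembly factors outside the naming rule, 9 were higher and 6 lower in K/L minus wild type, and 8 were higher and 2 lower in Sox4 minus wild type. Cox16, a complex IV assembly factor on chromosome 12, had a log2 difference of 1.04 in K/L minus wild type (limma, adjusted p = 4.25e-05) and 0.01 in Sox4 minus wild type. Ecsit, a complex I assembly factor that also acts in innate immune signalling, had 0.91 and 1.32 and passed in both. Acad9, another complex I assembly factor, was lower in K/L minus wild type, at -0.64, and Sco1, a copper chaperone of complex IV, at -0.72, and neither passed in Sox4 minus wild type. Of 13 electron carrier and coenzyme Q genes, 5 were higher and 3 lower in K/L minus wild type, and 5 higher and none lower in Sox4 minus wild type. Etfb, which feeds electrons from fatty acid oxidation into the chain, had log2 differences of 0.68 in K/L minus wild type and 1.03 in Sox4 minus wild type, and both passed the test. ND5, the 1 mitochondrially encoded subunit measured, had log2 intensities of 12.13, 11.98 and 12.40 in K/L and 12.37, 12.14 and 12.28 in Sox4, against 12.19, 12.01 and 12.25 in wild type, and the groups overlapped throughout.

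Regulators of mitochondrial gene expression did not move as one group. Of 20 tested, 5 were higher and 6 lower in K/L minus wild type, and 7 were higher and 6 lower in Sox4 minus wild type. Ppargc1b, a coactivator that drives expression of respiratory genes, had log2 intensities of 4.74, 4.77 and 4.10 in K/L and 7.30, 7.05 and 7.14 in Sox4, against 4.81, 4.30 and 4.32 in wild type. All values in K/L and wild type lay below the 40th percentile and all in Sox4 above it. Because it passed the filter through the Sox4 arrays alone, it had to differ to be retained, so its difference and test are not given, although it is among the 7 counted as higher. Pprc1, a relative of Ppargc1b, had log2 differences of 1.35 in K/L minus wild type and 1.45 in Sox4 minus wild type, and Polrmt, the mitochondrial RNA polymerase, 1.44 and 1.43. Nrf1, the factor of the motif searched above, had 0.39 and 0.37, and Pprc1, Polrmt and Nrf1 each passed the test in both comparisons. Gabpb1, a partner of the ETS factor Gabpa, was lower, at -0.97 in K/L minus wild type and -0.95 in Sox4 minus wild type. The related Gabpb2 went the other way, with 0.36, which did not pass, and 0.70, which did, and Gabpa passed in neither. Yy1, whose motif was also searched, had 1.13 and 0.64 and passed in both.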

How the data were processed

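RNA of 9 sorted samples, 5 ug each, was measured on Affymetrix mouse arrays, and the deposited value table holds linear intensity for 45101 probe sets, with a floor of 8. Per the submitters' processing notes, the authors made the intensity values with RMA, for which the sources used here give no version. The deposited intensity was taken to log2 with no further normalization. Array medians were 5.43 to 5.55 on that scale, and 4.86% to 5.57% of probe sets lay at the floor. The platform annotation gave 1 gene symbol for 34958 probe sets, several for 932 and none for 9211, and only the first were used.

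Where a gene had several probe sets, the one of highest average signal on the 9 arrays stood for it, using one whose name ends in _x_at only where the gene had no other. The 88 members tested are among 12826 genes that passed the filter. Limma 3.58.1 in R 4.3.3 fitted 3 groups to all 9 arrays, with 6 residual and 3.71 prior degrees of freedom. The Benjamini-Hochberg adjustment covered all tested genes, and calls were made at 0.05. The procedure was tested on simulated data. The number of arrays limits the precision.

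The members and lists were chosen with earlier results of these data known. Named genes were, per comparison and complex, up to 4 called members with the smallest p, up to 2 with the largest difference and up to 6 against the main direction, all of complex II, the isoform pairs, and up to 3 called genes of each other list. Some others were added for their place in a complex after their values were seen. 1 gene is not reported here. Replicate numbers were taken from the labels, which do not say that they pair the samples, and the main fit did not use them. Same-numbered arrays had correlations of their deviations from -0.024 to 0.082, which cannot show whether the samples were paired. Promoters are from RefSeq on GRCm38.p6. Alternatives changed the filter, the choice of probe set, centring, quantile normalization, the samples fitted, the variance model and the arrays left out.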

Additional observations from a re-analysis of the deposited data

Results flagged for a closer look

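Among the members, 2 differed from wild type in opposite directions in the leukaemias, and for both the difference between the leukaemias was tested directly. Cox6b2 had a log2 difference of -1.17 in K/L minus wild type and 2.59 in Sox4 minus wild type, and K/L minus Sox4 was -3.76 ± 0.21 (SE, n = 3 each, limma, adjusted p = 9.39e-07), with every K/L array below every Sox4 array. Ndufa3 had -0.44 and 0.26 in the same comparisons, and K/L minus Sox4 was -0.70 ± 0.08 (SE, n = 3 each, limma, adjusted p = 0.000141), with every K/L array below every Sox4 array. The Ndufa3 call in Sox4 minus wild type was lost in 4 of the 9 fits that leave out 1 array and with the mean of all probe sets. Another Ndufa3 probe set, of lower signal, gave -0.60 there, so the opposite direction is less certain for Ndufa3.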

How the results depend on the processing

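Of the members called in the report, 15 in K/L minus wild type, 12 in Sox4 minus wild type and 7 in K/L minus Sox4 kept their call under all alternatives run. Leaving out 1 array at a time gave 14 to 22 members higher and 6 to 11 lower in K/L minus wild type, 16 to 35 higher and 2 to 4 lower in Sox4 minus wild type, and 1 to 10 higher and 8 to 27 lower in K/L minus Sox4. The lowest Sox4 minus wild type count, 16, came without Sox4 array 2, and the highest, 35, without wild type array 3. With the arrays centred, 4 members were lower in K/L minus wild type and 11 higher in K/L minus Sox4, and the median differences were 0.11 and -0.09. Fitting only the 2 groups compared gave 8 lower in K/L minus wild type and 10 higher in K/L minus Sox4. A trended, robust variance gave 8 higher and 36 lower in K/L minus Sox4. With the replicate block, 17 members were higher and 10 lower in K/L minus wild type, 25 and 2 in Sox4 minus wild type, and 7 and 13 in K/L minus Sox4. The mean of all probe sets turned the sign of Dlst (-0.18), Idh2 (0.46), Ndufa10 (-0.10) and Slc25a3 (-0.06) in K/L minus wild type, of Atp5g2 (-0.05), Idh2 (0.54), Ndufa3 (-0.05), Sdha (-0.05) and Uqcrq (-0.06) in Sox4 minus wild type, and of Uqcrq (0.12) in K/L minus Sox4. Of called members with further tested probe sets, 2 of 15 in K/L minus wild type and 3 of 16 in Sox4 minus wild type had another called the opposite way. The cause of these changes was not tested.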

Other observations

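Genes that supply the respiratory chain were counted beside it, where 29.0% of all tested genes were higher and 21.6% lower in K/L minus wild type, and 26.7% and 21.1% in Sox4 minus wild type. Of 15 tested glycolysis genes, 10 were higher (66.7%) and 1 lower in K/L minus wild type, and 8 were higher (53.3%) and 1 lower in Sox4 minus wild type, with median log2 differences of 0.55 and 0.31. Aldoc, among the 10, passed the filter through the K/L arrays alone. Hk1, which traps glucose in the cell, differed by 2.31 in K/L minus wild type and 2.23 in Sox4 minus wild type. Ldhb, the lactate dehydrogenase subunit that favours pyruvate formation, was the gene that was lower, with log2 intensities of 6.73, 6.47 and 6.58 in K/L and 10.16, 10.34 and 10.38 in Sox4, against 11.94, 12.21 and 12.35 in wild type. Its difference was -5.57 ± 0.13 in K/L minus wild type (SE, limma, adjusted p = 1.59e-09) and -1.87 ± 0.13 in Sox4 minus wild type (limma, adjusted p = 2.55e-06).

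Of 17 tested genes of the tricarboxylic acid cycle and pyruvate dehydrogenase, 7 were higher (41.2%) and 4 lower (23.5%) in K/L minus wild type, and 5 were higher (29.4%) and 4 lower (23.5%) in Sox4 minus wild type. Idh2, among the lower genes in both, turned to 0.46 and 0.54 with the mean of all its probe sets. Ogdh, which acts on 2-oxoglutarate, had log2 differences of 0.76 and 1.40, and Fh1, fumarase, 0.61 and 0.94. Pdha1, a pyruvate dehydrogenase subunit, had -0.50 and -0.62. Of 8 tested carriers, 2 were higher and 1 lower in K/L minus wild type, and 3 were higher and 1 lower in Sox4 minus wild type. Slc25a3, the phosphate carrier, had 0.40 and 0.62, and with the mean of all its probe sets its K/L minus wild type value was -0.06. Of 7 progenitor markers, Itgam was below the 40th percentile on all K/L and Sox4 arrays, and the sum of the 7 was 14.92 to 14.99 in K/L and 15.38 to 15.39 in Sox4, against 15.14 to 15.23 in wild type on the log2 scale. Within that sum Elane, neutrophil elastase, averaged 8.80 in K/L and 13.12 in Sox4, against 12.85 in wild type, with a difference of -4.04 in K/L minus wild type (limma, adjusted p = 8.05e-08). Prtn3, another granule protease, had 0.52 in K/L minus wild type and 0.78 in Sox4 minus wild type, both past the test. B cell markers summed to 8.50 to 8.62 in K/L and 8.63 to 8.92 in Sox4, against 7.43 to 7.61 in wild type, but did not move together. Cd79b had log2 differences of 1.38 in K/L minus wild type and 1.9 in Sox4 minus wild type, both past the test. Cd79a passed as higher in K/L minus wild type, at 1.1, and as lower in Sox4 minus wild type, at -0.63. Pax5 had -0.29 and -0.24 and passed in neither, and Ms4a1 was below the 40th percentile in every group. T and NK cell markers summed to 7.33 to 7.43, 7.35 to 7.40 and 7.22 to 7.29 in K/L, Sox4 and wild type, and mature macrophage markers to 8.21 to 8.46, 6.75 to 6.97 and 8.40 to 8.79. Of the 5 macrophage markers, C1qa, C1qb and Marco were below the 40th percentile in every group and C1qc in K/L and wild type, while Adgre1 averaged 7.89 in K/L and 5.08 in Sox4, against 8.30 in wild type.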
